A study of Homo sapiens with 4 samples.

Results

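The comparison described here is that of H1299 cells given siRNA against hMOF with H1299 cells given a scramble siRNA. It rests on 2 of the 4 arrays of the study, 1 array a side. The cells of both groups are the same line, grown in the same serum-containing medium and transfected with the same lipid reagent, and differ in the siRNA. The other 2 arrays hold the same pair of siRNAs in A549 cells, and their values are set beside those of H1299. Members were all genes that the array annotation names by a single-gene probe set, and each gene was read from the probe set with the highest mean signal of the 2 H1299 arrays. Probe sets whose mean was below 73.9, the median over all probe sets, were left out, which kept 12596 of 19775 named genes. The groups follow the source names and titles of the arrays, because the treatment tag names the control siRNA on both H1299 arrays and hMOF siRNA on both A549 arrays.

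hMOF is the histone acetyltransferase encoded by KAT8, a member of the MYST family that acetylates lysine 16 of histone H4. It works inside the MSL and NSL complexes, which place it on gene bodies and on promoters of broadly active genes. H1299 is a non-small cell lung cancer line taken from a lymph node metastasis. It has more mesenchymal than epithelial character. An siRNA directs the Argonaute complex to a matching messenger RNA, so the level of the target is the first check of such an experiment. The labels used here do not give the siRNA sequence, the hours between transfection and harvest, or the number of cultures behind an array.

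Ratios are hMOF siRNA over scramble, as log2 of signal plus an offset of 28.4, the 20th percentile of the H1299 signals. With 1 array in each group there is no replicate error and no test, and genes were called by size alone, at 2-fold or more. The difference between the arrays may hold array and culture variation as well as the siRNA. Both H1299 arrays had nearly the same median signal, at 73.3 with scramble and 73.7 with hMOF siRNA. RNA integrity was read from control probe sets at both ends of a transcript, and the 3'/5' signal ratio was 1.10 with scramble and 1.09 with hMOF siRNA for GAPDH, and 2.89 and 2.64 for ACTB. The median ratio of all genes was −0.01, and 48.4% of genes lay above 0.

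The line was checked against marker genes. VIM, the mesenchymal intermediate filament gene, had signals of 15787 with scramble and 15594 with hMOF siRNA, and ZEB1, a repressor of epithelial genes, had 844 and 957. EPCAM, an epithelial adhesion gene, was at 29.3 and 33.6, close to the offset, and CDH1, the epithelial cadherin gene, was at 73.3 and 82.7. AKR1B10, a reductase gene that A549 is known for, was at 30.0 and 27.2 in H1299 and at 15008 and 12909 in A549. SCGB1A1, a marker of airway club cells, was at 16.5 and 24.8, and the leukocyte gene PTPRC was at 41.5 and 31.6. The summed signal of the 5 mesenchymal markers was 19902 and 19349, of which VIM gave the greater part. In A549 this sum was higher, at 23956.7 and 25858.5. SNAI2, also among these markers, was under the offset in H1299, at 11.6 and 12.3. The summed signal of the 7 epithelial markers was 3824 and 3024 in H1299, of which KRT18 gave the greater part, and 19564.4 and 17906.8 in A549. The surfactant gene SFTPB read 760 and 702, but also 798 and 722 in A549, on a probe set whose suffix marks possible matches to other transcripts.

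KAT8 was lower with hMOF siRNA. Its signal in H1299 was 241 with scramble and 61.8 with hMOF siRNA, so that 25.6% was left before the offset is added. With the offset the log2 ratio was −1.58. The hMOF siRNA signal was itself below the signal minimum of 73.9. In A549 the signals were 402 and 106 and the ratio −1.68. Both hMOF siRNA arrays therefore lay below both scramble arrays, although the H1299 scramble array started lower than that of A549. The other KAT8 probe set was below the minimum, at 61.7 and 39.8 in H1299. With no offset the H1299 ratio was −1.97.

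**Figure D1:**
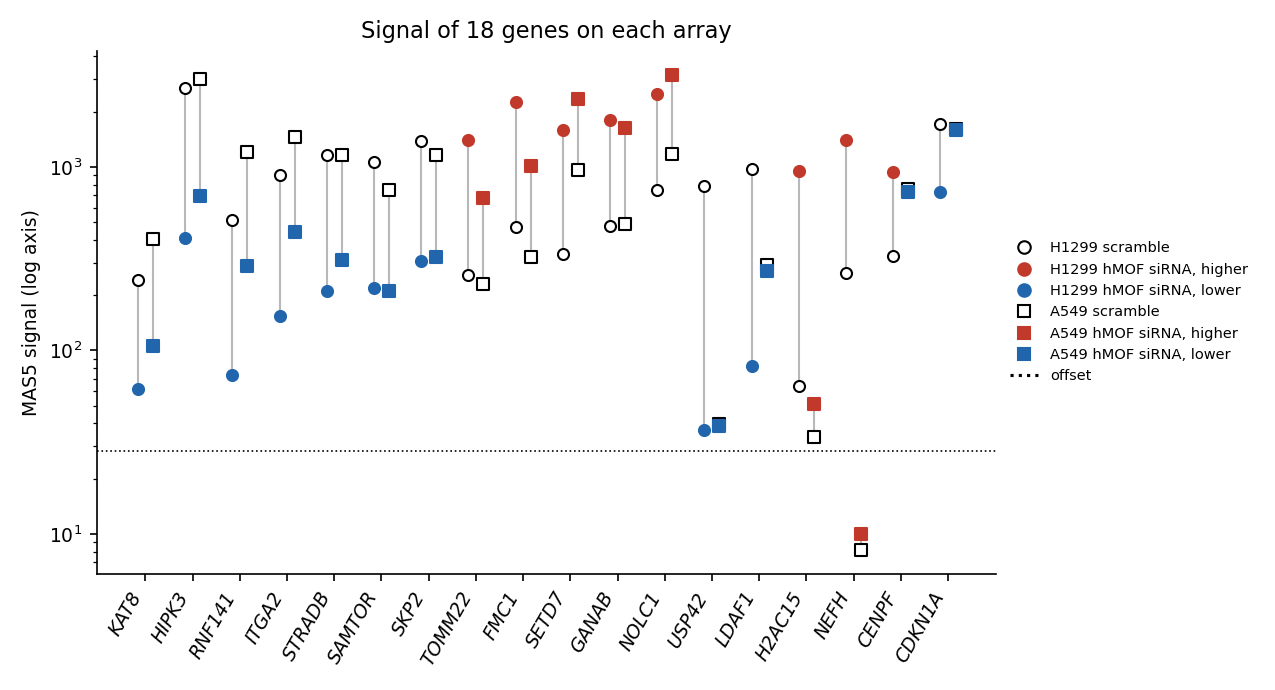
MAS5 signal (log axis) of 18 genes on each of the 4 arrays, with open symbols for scramble and filled symbols for hMOF siRNA, circles for H1299 and squares for A549. KAT8 was at 241 with scramble and 61.8 with hMOF siRNA in H1299, and genes such as HIPK3 and TOMM22 differed the same way in both lines, whereas USP42, LDAF1 and NEFH differed by 2-fold in H1299 but not in A549.

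Across the transcriptome, 169 genes were at least 2-fold higher with hMOF siRNA in H1299, 1.34% of those analysed, and 301 were at least 2-fold lower, 2.39%. On the same probe sets A549 had 66 higher genes (0.524%) and 134 lower genes (1.06%). Ratios between 1.5 and 2 on the log2 scale were found for 25 higher and 51 lower genes, and 8 higher and 24 lower genes reached 2 or more. The genes nearest the limit were NSF at 1.002 and PIR at 0.998 on the higher side, and MAML1 at −1.0004 and HEG1 at −0.9998 on the lower side. Calls were most frequent at intermediate signal: between 366 and 949, 2.25% of genes were 2-fold higher and 3.91% lower. For genes between 73.9 and 146, where the offset shrinks ratios most, these shares were 0.444% and 0.857%.

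**Figure D2:**
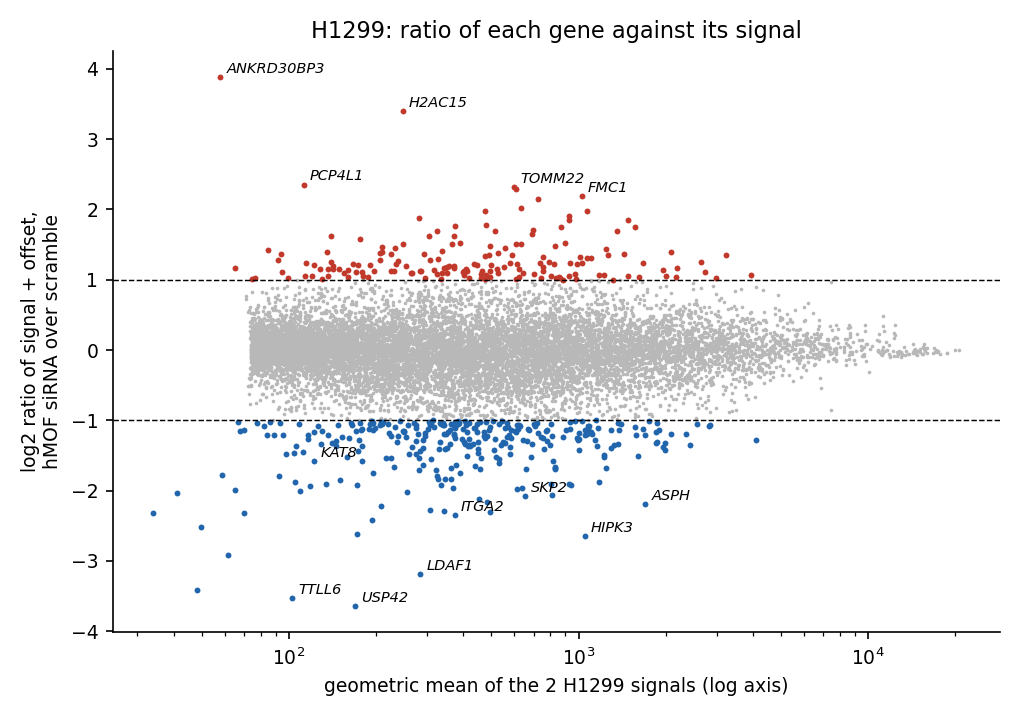
Log2 ratio of signal plus offset in H1299 (hMOF siRNA over scramble) against the geometric mean of the 2 signals (log axis), 1 point a gene, with dashed lines at 2-fold. The 169 higher genes are red and the 301 lower genes blue, and calls were most frequent at intermediate signal and least frequent among the dimmest genes.

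The 12 highest ratios, leaving out genes whose dimmer array was under the offset, belonged to genes of different functions. TOMM22, the receptor through which many precursor proteins enter mitochondria, had signals of 258 and 1398 in H1299 (log2 2.31), and 230 and 672 in A549 (1.44). FMC1, an assembly factor of mitochondrial ATP synthase, had 470 and 2240 (2.19). EMC6, a subunit of the complex that inserts membrane proteins into the endoplasmic reticulum, had 468 and 1833 (1.91). These 3 genes were also at least 2-fold higher in A549. SETD7, a lysine methyltransferase, had 335 and 1577 (2.15), and MED11, a Mediator subunit, had 136 and 579 (1.88). The secreted protein gene EPDR1 was at 302 and 1317 (2.02), and the zinc finger gene ZNF664 at 771 and 2850 (1.85). SETD7, MED11, EPDR1 and ZNF664 were 2-fold higher in A549 as well, at 1.27, 1.56, 1.12 and 1.16. The other kept probe sets of ZNF664 were at −0.05 and 0.39 in H1299.

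NEFH, VGF and PCP4L1, known from neurons and secretory cells, were among the 12 highest. NEFH encodes the heavy subunit of neurofilaments, and its signal was 264 with scramble and 1393 with hMOF siRNA (2.28), against 8.16 and 9.98 in A549. Its other probe set gave 119 and 514 in H1299 (1.88). VGF, the precursor of secreted neuropeptides, was at 527 and 2160 (1.98) and PCP4L1, a small calmodulin-binding protein family gene, at 39.6 and 319 (2.35). SCG2, a granin of secretory granules, was at 233 and 532 (1.10), and CHGB, another granin, had a ratio of 0.82. SNAP25 and SYT1, genes of vesicle release, had ratios of 0.77 and 0.75. Of the 14 neuronal genes analysed from a list of 24, 3 were 2-fold higher, none was 2-fold lower and 12 lay above 0, with a median of 0.46 in H1299 and 0.09 in A549. The shares over all genes were 1.34% higher, 2.39% lower and 48.4% above 0, and the counts of every list stand beside these shares. All gene lists were written with earlier results of these data known, so their counts are not independent of them. The other classical neuroendocrine genes were dim, with CHGA at 57.2 and 62.3, SYP at 79.2 and 92.7 and NCAM1 at 65.2 and 69.9. NEFL, the light neurofilament subunit gene, went the other way, at 81.4 and 58.75, with a mean below the signal minimum. PCP4L1, 1 of the 3 called genes of the list, was below that minimum of 73.9 with scramble. It passed the filter only through its hMOF siRNA signal, so the counts of this list depend on the filter. VGF was not on the list, and its only single-gene probe set is of the type that can match other transcripts. Summed over 4 neuroendocrine markers the signal was 283 with scramble and 284 with hMOF siRNA. The list's median was 0.09 with no signal filter and 0.75 with a filter at the 70th percentile.

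Of the 12 lowest ratios with both signals above the offset, 7 belonged to genes that were also 2-fold lower in A549. HIPK3, a homeodomain-interacting kinase, had signals of 2702 and 407 in H1299 (−2.65), and 3024 and 697 in A549 (−2.07). RNF141, a RING finger gene, had 514 and 73.4 (−2.42). ITGA2, the collagen-binding integrin subunit, had 903 and 154 (−2.35) and its other probe set had 355 and 72.8 (−1.92). STRADB, the pseudokinase that partners LKB1, had 1158 and 212 (−2.30). GPR160, an orphan receptor, had 818 and 144 (−2.29), SAMTOR, a sensor upstream of mTORC1, had 1069 and 218 (−2.16), and ASPH, an aspartyl hydroxylase, had 3679 and 785 (−2.19). In A549 the ratios of these 7 genes lay between −2.07 for HIPK3 and −1.63 for GPR160.

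The other 5 of these genes had their highest signal on the H1299 scramble array, more than 2-fold above the other 3 arrays. USP42, a deubiquitinase gene, read 783 with scramble and 36.7 with hMOF siRNA (−3.64), against 39.6 and 38.6 in A549. Its other 2 kept probe sets pointed the other way, at 0.44 and 0.46. LDAF1, a partner of seipin in lipid droplet assembly, read 978 and 82.1 (−3.19), with 292 and 270 in A549. TMEM221 read 502 and 58.5 (−2.61), the zinc finger gene ZBTB25 read 736 and 129 (−2.28), and HNF4G, a nuclear receptor gene, read 505 and 86.0 (−2.22). On the A549 arrays TMEM221, ZBTB25 and HNF4G all lay between 77.1 and 96.6. None of these last 3 genes has a further kept probe set in the analysis. The scramble array was at least 2-fold above all 3 other arrays for 84 of the 301 lower genes (27.9%), and the hMOF siRNA array was above all 3 others for 59 of the 169 higher genes (34.9%).

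In 10 of the called genes the dimmer array was under the offset, so the offset sets part of the ratio. ANKRD30BP3, a pseudogene, was the only such gene on the higher side, at 6.85 and 491 in H1299. On the lower side the 5 lowest were TTLL6, a tubulin ligase family gene (527 and 19.9), SLC13A1, a sulfate transporter gene (347 and 6.68), LOC101928697 (285 and 13.3), LINC00221 (203 and 12.3) and the keratin-associated gene KRTAP4-3 (152 and 7.63). Apart from TTLL6, all of them were under the offset on both A549 arrays.

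**Figure D3:**
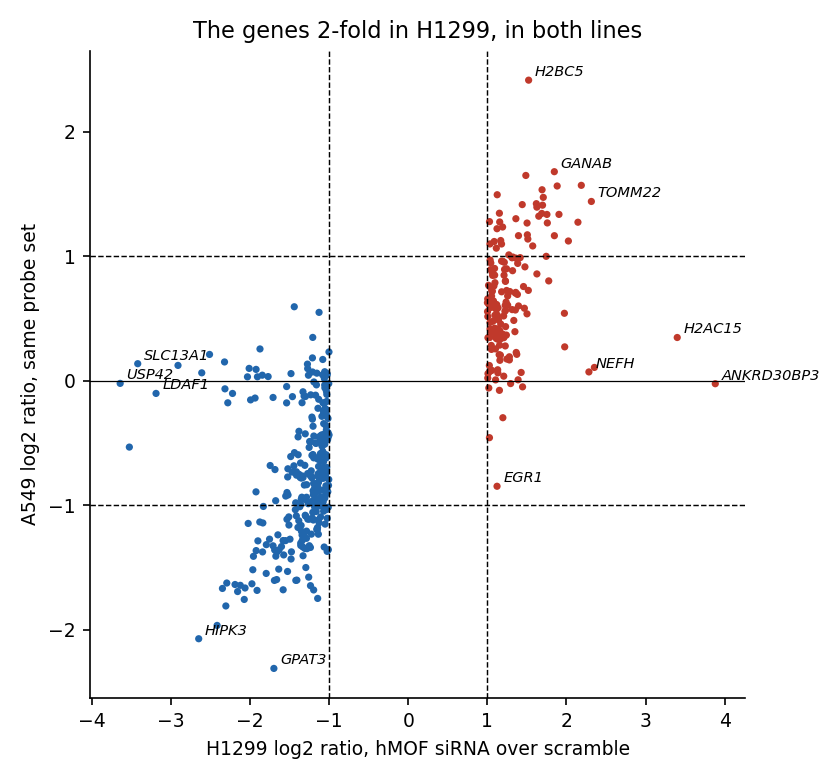
Log2 ratios (hMOF siRNA over scramble, signal plus offset) of the 470 genes called in H1299, with H1299 on the x axis and A549, on the same probe set, on the y axis, and dashed lines at 2-fold. No gene lies past 2-fold in opposite directions, and a band of genes with large H1299 ratios, such as USP42, H2AC15 and NEFH, lies near 0 in A549.

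The A549 arrays took no part in choosing these genes, so they serve as a second pair in another line. Of the 301 lower genes, 103 were 2-fold lower in A549 too (34.2%, against 1.06% of all genes), and 269 lay below 0 (89.4%). Of the 169 higher genes, 38 were 2-fold higher in A549 (22.5%, against 0.524%), and 161 lay above 0 (95.3%). The number 38 became 59 with no offset, 24 with averaged probe sets, and 24 without probe sets of the _x_at, _s_at and _a_at types. No gene was 2-fold in opposite directions. The median of the lower genes was −1.23 in H1299 and −0.79 in A549, and that of the higher genes 1.20 and 0.63. The H1299 medians are those of the chosen side, where the choice itself favours large values. In A549, 38 of the lower and 32 of the higher genes were below the signal minimum, and 1 of these 70 was 2-fold there. The difference between the lines was not tested, since each line has 1 pair.

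Some genes called in H1299 had a mean A549 signal at or above the minimum of 73.9 and an A549 ratio within 0.25 of 0. They numbered 10 on the higher side and 30 on the lower. Besides LDAF1, TMEM221, ZBTB25 and HNF4G the lower ones began with FAM149B1, LIPE, CACHD1 and SPIRE2. LDAF1 was well above the minimum in A549, at 292 and 270. TMEM221, ZBTB25, HNF4G, CACHD1 (84.7 and 71.5) and SPIRE2 (88.7 and 85.0) were close to it there. For such dim genes a ratio near 0 cannot tell an unchanged level from a signal too low to read. LIPE, hormone-sensitive lipase, read 377 and 78.6 in H1299 (−1.92), and its A549 ratio was 0.09. For FAM149B1 (−2.01) the other kept probe sets gave 0.19 and 0.30, and for SPIRE2, an actin nucleator (−1.54), they gave −0.05, 0.33 and 0.09. The higher ones began with CENPF, a kinetochore protein gene (1.45), followed by the cancer-testis gene SSX3 (1.37), the histone chaperone gene NAP1L2 (1.28), the myosin gene MYO7A (1.17), KMT5B, a methyltransferase for lysine 20 of histone H4 (1.16), GLDN (1.15), ZNF85 (1.13) and SPP1, osteopontin (1.10). SPP1 was at 115 and 279 in H1299 and far brighter in A549, at 5347 and 5370. For KMT5B the other kept probe set pointed the other way (309 and 170 in H1299, −0.77). The other kept probe sets of SSX3 (−0.04), MYO7A (−0.01) and ZNF85 (0.25) were near 0, and with averaged probe sets SSX3, MYO7A, ZNF85 and KMT5B were all under 2-fold.

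Different probe sets of a gene read the same 2 RNA samples through other sequences, so they measure probe response and are not replicates. Among the 5886 genes with 2 or more kept probe sets, the ratios of the brightest and the second brightest differed by a median of 0.15, and 97.4% of pairs differed by less than 1. The spread attached to a single probe set was 0.26 (SD from the pair differences, n = 5886 genes). Called genes were chosen on the brightest probe set, which favours large ratios there. Of 92 higher genes with a further kept probe set, 42 had another one at 2-fold the same way (45.7%), and of 165 lower genes, 67 had (40.6%). The second brightest had the same sign for 81 of 92 higher and 137 of 165 lower genes. Probe sets of 1 gene can lie on different transcript ends, and how much of the disagreement that gives was not tested.

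**Figure D4:**
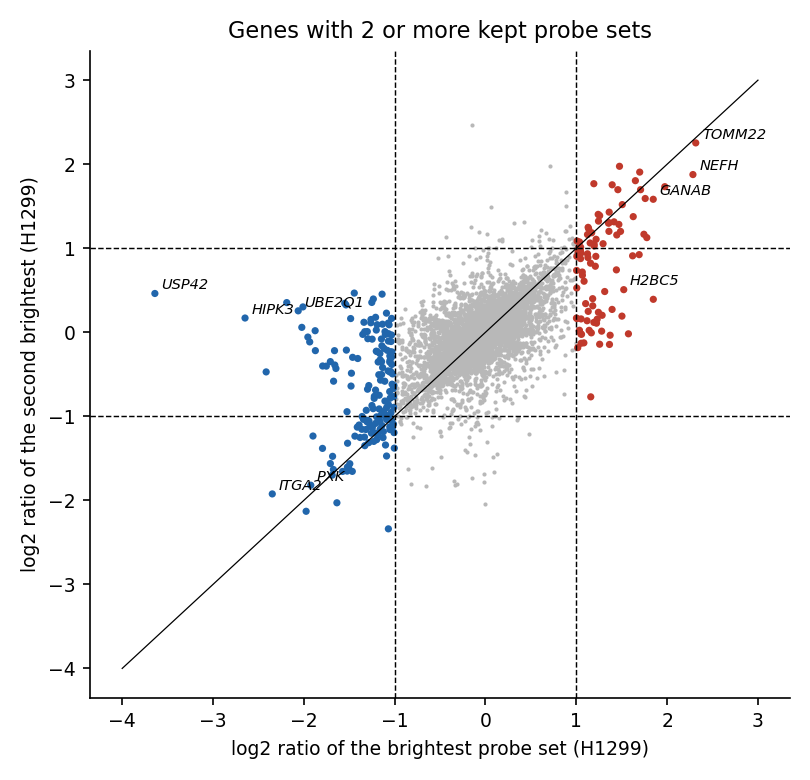
Log2 ratio in H1299 of the second brightest kept probe set against that of the brightest, 1 point for each of 5886 genes, with called genes in red (higher) and blue (lower), the diagonal solid and 2-fold dashed. NEFH, TOMM22, ITGA2 and PXK lie near the diagonal, and HIPK3, USP42 and UBE2Q1 lie near or above 0 on the second probe set.

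All kept probe sets were 2-fold the same way for 25 higher and 32 lower genes, which are the calls least dependent on 1 probe set. After NEFH, the higher genes, ranked by the smallest of their ratios, were the pseudogene ZNF542P (smallest ratio 1.73), BICD2, which links cargo to dynein (1.62), R3HCC1 (1.59), GANAB, the catalytic subunit of glucosidase II (1.58), and NOLC1, a nucleolar phosphoprotein (1.58). HABP4 (1.48), ZNF271P (1.46), TOMM22 (1.38) and the ubiquitin ligase gene UBE3A (1.30) came next. GANAB read 477 and 1789 in H1299 and 490 and 1631 in A549, and NOLC1 read 746 and 2484, and 1180 and 3181. In both genes each hMOF siRNA array was above both scramble arrays.

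After ITGA2 the lower genes by this rule were PXK, a kinase-like protein of endosomes (−1.73), ATPAF1, an assembly factor of ATP synthase (−1.64), MOB1A, an activator of Hippo pathway kinases (−1.60), RRAD, a small GTPase (−1.56), and TOB1, an antiproliferative gene (−1.52). The transcription factor gene ETS1 (−1.49), TRIM14 (−1.38), the kinase gene NEK3 (−1.32) and the sulfotransferase gene CHST11 (−1.25) followed. ETS1 read 2084 and 722 in H1299, and 444 and 167 in A549. RRAD read 616 and 169 in H1299, and 49.9 and 42.9 in A549.

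HIPK3, RNF141 and ASPH are examples of the opposite. The second kept probe set of HIPK3 had a ratio of 0.17, and that of RNF141 read 176 and 119 (−0.47). ASPH had 7 kept probe sets, of which 2 were near −2 (−2.19 and −2.10), 1 was at −0.75 and 4 lay between 0.02 and 0.35. For UBE2Q1, a ubiquitin-conjugating enzyme, they gave −2.06, −1.48 and 0.26. With the ratio of each gene averaged over its kept probe sets, 121 genes were 2-fold higher and 204 lower.

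Histone genes were among the groups with most 2-fold members. In dividing cells most histones are made from clustered genes during S phase, and their messages mostly lack a poly(A) tail, which affects how arrays primed from that tail read them. Of 70 listed genes 30 were analysed, and 4 of them were 2-fold higher, none was 2-fold lower, and 23 lay above 0, with a median of 0.23 in H1299 and 0.20 in A549. Over all genes 1.34% were 2-fold higher and 48.4% lay above 0. H2AC15, an H2A gene, read 64.2 with scramble and 949 with hMOF siRNA in H1299 (3.40), and 33.9 and 50.8 in A549 (0.35). Its scramble signal was below the signal minimum of 73.9, so it passed the filter only through the hMOF siRNA array. Its other probe set was below the minimum and read 47.3 and 43.1. H2BC5 read 520 and 1546 (1.52), with 244 and 1425 in A549 (2.41), and its second probe set gave 0.51 in H1299. Both H2BC5 probe sets are of the type that can match other genes. H2BC4 read 186 and 438 (1.13). H2AJ, which lies outside the main clusters, read 1451 and 3298 (1.17), but its 2 probe sets at that ratio are of the type that can match other genes, and without that type the gene stood at −0.13. MACROH2A2 (0.79) and H2BC17 (0.78) were the next highest, and H2BC13 (−0.25) and H2AZ2 (−0.22) the lowest. Near-identical histone genes can share probes, so single members are uncertain.

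The promoters of the 4 histone genes are shown because these genes share a group and a direction and the text below counts motifs in such windows. Each window runs from 250 bases before to 50 bases after the annotated start in RefSeq (GRCh38.p14), written 5′ to 3′ on the strand of the gene. Capitals mark TATAAA and CCAAT, sequences found on either strand, so that the reverse complements TTTATA and ATTGG are in capitals too. No matches overlap in these windows.
H2AC15 (chr6:27838326-27838625, minus strand): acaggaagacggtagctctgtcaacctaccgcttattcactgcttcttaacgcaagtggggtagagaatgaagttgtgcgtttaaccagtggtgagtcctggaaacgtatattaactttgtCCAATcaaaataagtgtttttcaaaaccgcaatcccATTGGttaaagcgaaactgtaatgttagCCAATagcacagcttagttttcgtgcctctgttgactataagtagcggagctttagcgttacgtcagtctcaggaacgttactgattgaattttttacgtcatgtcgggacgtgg
H2BC5 (chr6:26157871-26158170, plus strand): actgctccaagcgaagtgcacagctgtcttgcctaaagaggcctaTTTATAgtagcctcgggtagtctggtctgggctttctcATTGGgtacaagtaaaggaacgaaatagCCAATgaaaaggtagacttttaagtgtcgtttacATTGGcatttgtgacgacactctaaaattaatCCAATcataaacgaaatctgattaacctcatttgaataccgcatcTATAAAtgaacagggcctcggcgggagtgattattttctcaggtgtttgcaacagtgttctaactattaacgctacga
H2BC4 (chr6:26123877-26124176, minus strand): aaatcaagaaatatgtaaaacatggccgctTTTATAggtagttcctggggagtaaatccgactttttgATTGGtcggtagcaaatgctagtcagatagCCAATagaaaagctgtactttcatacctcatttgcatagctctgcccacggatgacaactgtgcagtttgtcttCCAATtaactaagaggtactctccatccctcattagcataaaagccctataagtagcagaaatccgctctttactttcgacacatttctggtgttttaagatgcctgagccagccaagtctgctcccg
H2AJ (chr12:14774155-14774454, plus strand): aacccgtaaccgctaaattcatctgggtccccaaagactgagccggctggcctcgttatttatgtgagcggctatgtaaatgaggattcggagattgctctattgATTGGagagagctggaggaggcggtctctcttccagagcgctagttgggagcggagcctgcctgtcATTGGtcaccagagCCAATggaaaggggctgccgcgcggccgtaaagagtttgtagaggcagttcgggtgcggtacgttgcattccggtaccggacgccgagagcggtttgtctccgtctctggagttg

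CCAAT occurs 3 times in the window of H2AC15, 4 times in that of H2BC5, 3 times in that of H2BC4 and 3 times in that of H2AJ. TATAAA occurs 2 times in the H2BC5 window and 1 time in the H2BC4 window, on either strand, and has no match in the windows of H2AC15 and H2AJ. Of the 29 analysed histone genes with a promoter in the table, 24 hold CCAAT and 17 hold TATAAA. Over all 10209 analysed genes with a promoter in the table, 36.6% hold CCAAT and 5.57% hold TATAAA. Among the 131 higher genes with a promoter the shares were 47.3% and 9.92%, and among the 244 lower genes 35.2% and 4.92%. The median GC content was 63.3% for higher genes, 67.7% for lower genes and 65.3% for all.

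The annotated span of the called genes differed as well. The median span in RefSeq was 22.7 kb for higher genes, 53.4 kb for lower genes and 28.5 kb for all analysed genes. The quartiles of the lower genes were 22.1 and 117 kb, and those of the higher genes 8.98 and 47.1 kb, so the distributions overlap widely. Protein-coding genes made up 91.7% of the higher genes, 97.0% of the lower genes and 92.5% of all. These features were described without a test.

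Of 11 MSL and NSL members, all analysed, none was called 2-fold in H1299 and the median was 0.06. MSL1, the scaffold of the MSL complex, was just under the limit at 774 and 1571 (0.99), which is 203% of scramble before the offset is added. It was 2-fold higher in A549 (1.10), but its second brightest probe set was at −0.13 in H1299. MCRS1, an NSL subunit, was at 0.78, and the lowest was the NSL subunit gene KANSL3 (−0.37). Among 12 other acetyltransferases KAT6A, another MYST enzyme, read 735 and 351.3 (−1.01) and was the only 2-fold member, with KAT6B at −0.63 and HAT1 at 0.45. KAT6A lies at the 2-fold limit on this probe set, so a small shift moves its call. Its other kept probe set read 560 and 229 (−1.19). Of 17 deacetylases and sirtuins none was 2-fold. HDAC1 was the highest at 0.87 and SIRT1, a deacetylase with histone H4 among its known substrates, the lowest at −0.45.

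Most mitotic genes lay above 0 in H1299. Of 35 genes 2 were 2-fold higher and 1 was 2-fold lower, against 1.34% and 2.39% of all genes. These genes build the spindle and the kinetochore and are expressed towards the end of the cell cycle. Of 35 genes, all analysed, 29 lay above 0 and the median was 0.36, against 10 above 0 and a median of −0.14 in A549. Beyond 2-fold were CENPF, with signals of 328 and 941 in H1299 and 758 and 732 in A549, and BIRC5, survivin, with 1379 and 2889 in H1299 (1.05). The other kept probe set of CENPF gave 1.16, and those of BIRC5 lay between 0.87 and 0.94. HMMR, a spindle assembly gene (0.95), and CCNA2, cyclin A (0.83), were next. CCNB2, a B-type cyclin, went against the list, with 3166 and 1374 in H1299 (−1.19) and −0.98 in A549.

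The G1/S and DNA replication genes had a smaller median, 0.18 in H1299 and −0.16 in A549, with 31 of 43 above 0 in H1299 and 14 in A549. RRM2, a subunit of ribonucleotide reductase, was the only 2-fold member at 2706 and 5695 (1.07), with 0.72 on its other kept probe set. RRM1, the other subunit, was at 0.60, and GINS2 and GINS3, of the replicative helicase, were at 0.59 and 0.58. The cyclin D genes CCND3 (−0.45) and CCND1 (−0.32) were the lowest. Over all genes 48.4% lay above 0 in H1299 and 46.8% in A549.

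SKP2, the F-box protein that marks CDK inhibitors for degradation, read 1385 and 308 in H1299 (−2.07). The other ligase subunits SKP1, CUL1 and RBX1 lay between −0.01 and 0.18. CDKN1A, which encodes the CDK inhibitor p21, read 1707 and 731 in H1299 (−1.19), and 1606 and 1594 in A549 (−0.01). CDKN2D was at −0.89, CDKN1C at −0.43, and CDKN1B, the SKP2 substrate p27, at −0.18. The only kept probe set of SKP2 is of the type that can match other transcripts. Another one, below the minimum, read 95.4 and 35.4 (−0.96).

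Most proteasome genes lay above 0 in H1299, within 2-fold. The proteasome is the protease that degrades ubiquitin-tagged proteins, built from a 20S core and regulatory caps. Of 35 subunits and assembly genes analysed, 29 lay above 0, and the median was 0.42 in H1299 against 0.06 in A549. Only PSMC3, an ATPase of the cap, was 2-fold higher, with 464 and 1632 in H1299 (1.75) and 570 and 1481 in A549 (1.33). ADRM1, a ubiquitin receptor (0.79), and the ATPase gene PSMC4 (0.71) followed. The middle of the list was narrow: PSMA7, PSMB4, PSMB5, PSMB3, PSMA1 and PSMD4 lay between 0.36 and 0.50. PSME1, a subunit of the interferon-inducible cap, was 2-fold lower, at 2826 and 1268 (−1.14).

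Most ubiquitin-conjugating enzymes were near 0, with a median of 0.04 over 24 genes. Of these 24 genes 2 were 2-fold lower, against 2.39% of all genes, and none was 2-fold higher. They were UBE2Q1 (−2.06) and UBE2F, the E2 for NEDD8 (−1.07). The other kept probe sets of UBE2F gave −2.34, −1.59 and −0.43. UBE2S, which extends chains for the anaphase-promoting complex, was the highest at 0.34. Among chaperones of the heat shock response, 12 of 15 lay above 0 with a median of 0.18, and none was 2-fold. The highest were DNAJB4 (0.55) and DNAJA1 (0.51), and the lowest was BAG3 (−0.41).

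The mitochondrial lists had medians between −0.02 and 0.12 in H1299. The 52 subunits of oxidative phosphorylation had a median of −0.02 and no 2-fold member, with COX7C lowest at −0.86 and NDUFB6 highest at 0.49. The 70 mitochondrial ribosomal proteins had a median of 0.12, with 50 above 0, against 48.4% of all genes. Among them MRPS34 was 2-fold higher (468 and 1213, 1.32) and MRPS27 2-fold lower (3189 and 1205, −1.38). In the import machinery TOMM22 had the highest ratio, and TIMM17B, a subunit of the inner membrane channel, the lowest, at 1211 and 356 (−1.69), while the median of 27 genes was 0.03. The 51 cytosolic ribosomal proteins, among the brightest genes, lay between −0.15 for RPS24 and 0.09 for RPL11.

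**Figure D5:**
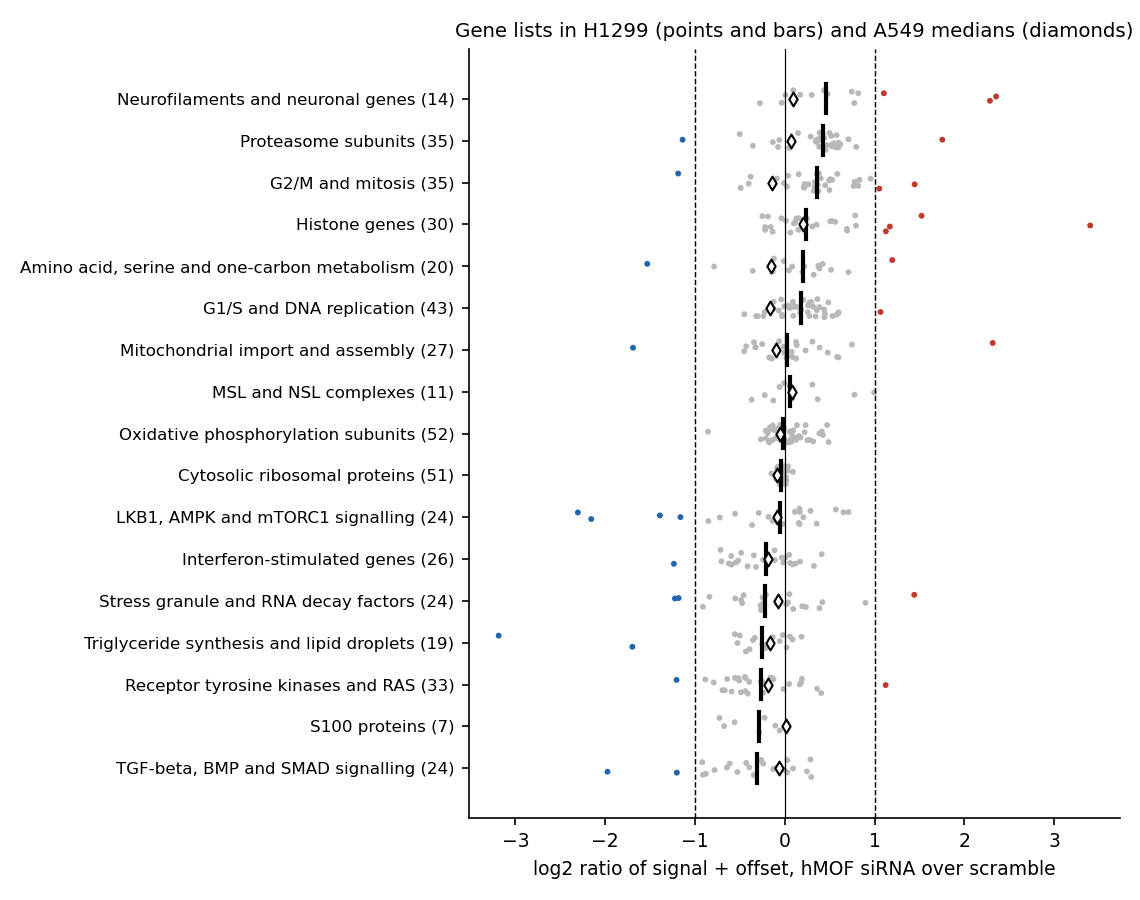
Log2 ratios in H1299 of the members of 17 gene lists (points, red and blue beyond 2-fold), with the number analysed in brackets, the H1299 median as a black bar and the A549 median as an open diamond. The medians run from −0.31 for TGF-beta, BMP and SMAD signalling to 0.46 for neuronal genes, and most members of every list lie within 2-fold.

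Of 24 genes of nutrient and energy signalling 4 were 2-fold lower, against 2.39% of all genes, and none was 2-fold higher. The list was written with earlier results of these data known, so this count is not independent of them. LKB1, with STRAD and CAB39, activates AMPK, and mTORC1 is the growth kinase that AMPK restrains. STRADB (−2.30) and SAMTOR (−2.16) were accompanied by CAB39, which stabilises the LKB1 complex, at 2120 and 790 (−1.39), and by MTOR, the kinase itself, at 202 and 74.3 (−1.16). CAB39 had 2 kept probe sets, both 2-fold lower, and the second read 263 and 107 (−1.10). In A549 the 4 genes were at −1.81, −1.69, −0.45 and −0.89. STK11, which encodes LKB1, was the highest of the list at 0.71. The list of 24 had a median of −0.05, with 13 members below 0 and 11 above. PRKAR2B, a regulatory subunit of protein kinase A, read 992 and 206 (−2.12), and PRKAR2A, its close relative, was at 0.46.

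The TGF-beta, BMP and SMAD list had the lowest median of the larger lists, −0.31 in H1299 and −0.06 in A549, with 18 of 24 genes below 0. SMAD5, which carries BMP signals to the nucleus, read 1259 and 299 (−1.98), and its other kept probe sets gave −2.13, −1.63 and −0.64. SMURF1, a ubiquitin ligase of the pathway, read 894 and 373 (−1.20), but its other kept probe sets, both dim, were at 0.44 and 0.03. The inhibitory SMAD7 (−0.92), SMAD3 (−0.91) and the target genes ID3 (−0.88) and ID2 (−0.78) were below 0 as well. The receptor gene TGFBR1 was the highest at 0.29. The ratio of SMAD7 in A549 was 0.02.

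Receptor tyrosine kinase and RAS pathway genes had a median of −0.27, with 26 of 33 below 0. MAP2K1, the kinase MEK1, read 2596 and 1109 in H1299 (−1.21) and was at −1.06 in A549. ERBB3 (−0.89), MET (−0.79) and EGFR (−0.59) had the lowest ratios named among the receptors, and DUSP6 (−0.70), DUSP5 (−0.64) and SPRY2 (−0.49) among the feedback inhibitors that ERK signalling induces. EGR1, an immediate early gene, went the other way, with 307 and 703 in H1299 (1.12) and 116 and 52.0 in A549 (−0.85). Its other kept probe sets in H1299 gave 0.93 and 0.64. In A549 these gave −0.0005 and −0.22, and the flat one, at 394.7 and 394.6, was the brightest of the gene there. The median of this list was −0.44 with a filter at the 70th percentile of signal, and −0.13 with averaged probe sets.

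Of 16 integrin genes 2 were 2-fold lower, and of 23 matrix genes 1 was, against 2.39% of all genes. No member of either list was 2-fold higher. Besides ITGA2, the integrin gene ITGA10 read 401 and 182 (−1.03), and the median of 16 integrin subunits was −0.15. MMP1, an interstitial collagenase, read 194 and 57.7 (−1.37), PLAU, urokinase, was at −0.87 and its receptor gene PLAUR at −0.42. Of the 23 matrix genes 17 lay below 0, with a median of −0.20, while 48.4% of all genes lay above 0. FN1, fibronectin, was at −0.42. All 7 S100 genes analysed lay below 0, with S100A2 (−0.73) and S100A16 (−0.68) lowest and a median of −0.29 in H1299 and 0.02 in A549. VIM was at −0.02 and the 11 mesenchymal genes had a median of 0.04.

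Among 24 stress granule and RNA decay genes, 2 were 2-fold lower (2.39% of all genes were) and 1 was 2-fold higher. DICER1, which cuts microRNA precursors, read 1534 and 660 (−1.18), and its other kept probe sets gave −1.22, −0.96 and −0.16. TNRC6A, the scaffold that Argonaute proteins recruit, read 1258 and 522 (−1.22), with −0.76, −0.84, 0.40 and 0.41 on its other kept probe sets, of which the one at 0.40 read 229 and 312. The Argonaute genes were within 2-fold, with AGO4 at −0.84, AGO2 at −0.55 and AGO1 at 0.39. In A549 DICER1 was at −1.02 and TNRC6A at −1.23. G3BP2, a stress granule gene, read 744 and 2068 (1.44), with 0.81 and 0.74 on its other probe sets. Over the 24 genes of the list the median was −0.22 in H1299 and −0.08 in A549.

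Of 19 triglyceride and lipid droplet genes 2 were 2-fold lower and none was 2-fold higher. Of 18 cholesterol synthesis genes 1 was 2-fold lower and 1 was 2-fold higher. Over all genes the shares were 2.39% lower and 1.34% higher. GPAT3, which starts triglyceride synthesis, read 1524 and 450 in H1299 (−1.70), and 467 and 71.3 in A549 (−2.31), and with LDAF1 it was 2-fold lower among 19 genes whose median was −0.25. PLIN2, the main coat protein of lipid droplets, was at −0.43 and LPIN1 at −0.53. In cholesterol synthesis DHCR7, the last enzyme, read 1024 and 448 (−1.14), with −0.35 on its other kept probe set, and PMVK, an early kinase, 431 and 951 (1.09), and the median of 18 genes was −0.11. None of 12 fatty acid synthesis genes was 2-fold, with ACSS2 (−0.76), FADS2 (−0.72) and ACLY (−0.63) lowest and a median of −0.27.

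In amino acid metabolism the H1299 ratios spread in both directions. PHGDH, the first enzyme of serine synthesis, read 809 and 261 (−1.53) in H1299 and was at −1.11 in A549. SLC7A11, the cystine transporter, read 159 and 402 in H1299 (1.20) and 3616 and 2937 in A549 (−0.30), and its other kept probe set gave 1.03. ASNS, asparagine synthetase (0.71), and CTH, of cysteine synthesis (0.51), were next. The 20 genes had a median of 0.21 in H1299 and −0.16 in A549. Genes of the unfolded protein response had a median of 0.06 with none of 24 at 2-fold. ATF4, which drives many of these amino acid genes, was at 0.17 and DDIT3 at 0.12.

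Interferon-stimulated genes had a median of −0.21 in H1299, close to −0.19 in A549, and 18 of 26 were below 0. IRF9, the DNA-binding part of the interferon response factor, read 409 and 157 (−1.24) and was the only 2-fold member, with IRF7 at −0.72 and IFI44L at −0.71. IFIT1, often induced by foreign RNA, was at 0.12 and OASL at 0.05. In the NF-kB list the inhibitor gene NFKBIE read 958 and 350 (−1.38), while the chemokine gene CXCL2 was at 0.89, and the median of 16 genes was −0.10. ATG9A, a lipid scramblase of autophagy, was at −1.22, RB1CC1 at −0.90 and BECN1 at 0.84, and the 30 autophagy genes had a median of −0.01.

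Single members stood apart in other lists. The kinesin gene KIF1C read 203 and 683 (1.62), KIF9 was at 1.24 and KIFAP3, which binds kinesin-2 motors, at 692 and 251 (−1.37), while the 29 genes had a median of −0.02. The Mediator list had a median of −0.05 with MED11 alone beyond 2-fold, followed by CDK8, its kinase, at 0.79, and MED28 at −0.94. Among DNA repair genes XRCC4, which joins broken ends with LIG4, read 328 and 751 (1.13), and its 3 kept probe sets were all 2-fold higher. In the BCL2 family BCL2L13 was at 1.18, but its other 4 kept probe sets gave 0.13, 0.31, 0.37 and 0.90, and the pro-apoptotic genes BMF (−0.83), BAK1 (−0.79) and PMAIP1 (−0.75) were lowest. CTCFL, a testis relative of CTCF, read 121 and 363 in H1299 (1.39) and 15.99 and 16.2 in A549. The mannosidase gene MAN1A1 read 927 and 423 in H1299 (−1.08), with −0.22 on its other kept probe set, and 13.04 and 14.4 in A549, and TEAD3 was at −1.04.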

How the data were processed

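Total RNA was labelled as biotinylated cRNA and hybridised to Affymetrix arrays of 54675 probe sets. The deposited values are signal intensities on a linear scale, made with MAS5 per the submitters' processing notes. No source used here gives its scaling or other settings. Probe sets were named through the platform annotation, and of the non-control ones 41091 had 1 gene, 1801 several and 11721 none. Symbols were checked by gene identifier against RefSeq (GRCh38.p14), which lacked 54.

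From the authors' intensities, log2(signal + 28.4) ratios were computed within each line in Python 3.11.15 with pandas 2.3.3 and numpy 2.4.6, and figures with matplotlib 3.10.9. No further normalization was applied. Offset, filter and probe choice used the 2 H1299 arrays. The computation was tested on simulated data. With 1 array a side no test was made.

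Named genes were KAT8, the 12 highest and 12 lowest ratios, the 5 each way with the dimmer array under the offset, the 10 each way by the smallest ratio of 2 or more probe sets, the 8 each way flat in A549, genes opposite in A549, and members of the 48 gene lists. 1 further gene list is not reported here. VGF's list absence and the 2 genes beside each 2-fold limit were noted after values were seen. Members and lists were chosen with earlier results of these data known. Listed genes below the filter or without a single-gene probe set are not analysed here.

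The alternatives were an offset of 0 or 55.6 (40th percentile), no filter or one of 166 (70th percentile), quantile normalization, median centring, averaged probe sets, and leaving out probe sets ending in _x_at, or in _x_at, _s_at or _a_at.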

Additional observations from a re-analysis of the deposited data

Results flagged for a closer look

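Medians of 3 lists lay at least 0.1 from 0 on opposite sides in the lines, and the difference was not tested. They were G2/M and mitosis (0.36 in H1299, −0.14 in A549), G1/S and DNA replication (0.18, −0.16), and amino acid, serine and one-carbon metabolism (0.21, −0.16). Each keeps its sign in H1299 under the 9 alternatives.

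Probe sets that the annotation pairs with no gene also differed beyond 2-fold in H1299. Of 3543 above the signal minimum, 28 were higher and 42 lower with hMOF siRNA, shares of 0.790% and 1.19%.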

How the results depend on the processing

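With 1 array a side, no array could be left out and array variation cannot be told apart from the siRNA. Within H1299 no replicate numbers pair the arrays. A fit over both lines with line as a block, which leaves 1 residual degree of freedom, was not run, since it treats the lines as replicates of 1 effect. The 2-fold counts stayed within 1.5 times of 169 higher and 301 lower under all 9 alternatives, from 113 to 223 higher and from 204 to 360 lower, and the share of higher among calls from 31.1% to 41.7%. With no offset the KAT8 ratio was −1.97 and 59 higher genes were shared with A549 instead of 38. That number was 24 with averaged probe sets and 24 without _x_at, _s_at and _a_at probe sets. Without these, 8 higher and 16 lower genes had 2 or more probe sets all 2-fold. With no filter these numbers were 14 and 15, because dim probe sets then had to agree, and 3 lists had a median of at least 0.2 instead of 5. With an offset of 55.6 the lower number was 18, and 6.60% of higher genes' promoters held TATAAA. Ratios changed sign without _x_at probe sets for H2AJ (−0.13) and SPIRE2 (0.33), and without all 3 types for H2AJ (−0.13), SPIRE2 (0.094), FAM149B1 (0.30) and USP42 (0.46), where another probe set of the gene took over. Averaging probe sets took 20 of 103 named genes below 2-fold, and left 5 lists with a median of −0.2 or lower instead of 8. The cause of the other shifts was not tested. Dim genes are limited by signal over background, and their ratios by the offset.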
